A study of Mus musculus with 2 samples.

Results

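The TEAD and Hippo pathway genes followed here are Tead1, Tead2, Tead3, Tead4, Yap1, Wwtr1, Lats1, Lats2, Amotl2 and Vgll4, 10 of the 21853 protein-coding genes of the mouse annotation. They were taken by name, with every LSD1 peak within 1 kb of one of their protein-coding transcript starts and every peak from 50 kb upstream to 50 kb past the gene. These windows held 134 of the 59175 peaks of the list. The study mapped the chromatin binding of lysine-specific demethylase 1 (LSD1) by chromatin immunoprecipitation and sequencing in primary brown adipocytes that had been differentiated in culture. The mice were of strain C57BL/6 N and genotype control. It comprises 1 library of LSD1 immunoprecipitate, made with an antibody from the submitters' own laboratory, and 1 input library without antibody. Both came from cells at passage 2 to 3, grown on collagen in high-glucose medium with 20% serum and fixed for 5 min on day 10 of differentiation. The adipogenic mix held rosiglitazone (1 µM), T3 (1 nM), insulin (850 nM), isobutylmethylxanthine (500 µM), indomethacin (125 nM) and dexamethasone (1 µM). The agents are shared by both libraries, so no treatment is compared.

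The Hippo pathway links cell contact, shape and tension to transcription. When it is active, the LATS kinases phosphorylate the coactivators YAP (Yap1) and TAZ (Wwtr1) and keep them in the cytoplasm. When it is inactive, YAP and TAZ enter the nucleus and join the TEAD proteins, which bind DNA but activate poorly alone. VGLL4 competes with YAP for TEAD, and AMOTL2, an angiomotin-like protein of cell junctions, holds YAP outside the nucleus and favours LATS activity. In mesenchymal cells TAZ is known as a corepressor of the adipocyte receptor PPARγ. LSD1 removes methyl groups from histone lysines and is recruited to chromatin in corepressor complexes.

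The processed data are 1 peak list with 1 score per peak, the authors' own value, on a scale that the sources used here do not give. Scores of the list ran from 50.1 to 3224 with a median of 111, and the 10% of peaks with the highest scores began at 391. There are no replicates, no read counts and no known depth, so the values below are descriptions of 1 library. The genes were chosen with results of this list known, and no test was made of their peaks. Coordinates are in mm10, counted from 1, and printed sequences were read from RefSeq's copy of that assembly, 5' to 3' on the strand named. Peaks do not measure expression, so the labelled cell type was not checked against its markers.

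LSD1 lay at a start of all 10 genes, but the scores fell into a high and a low set. A promoter peak (within 1 kb of a coding start) was present at 10 of 10 members, beside 55.8% of all coding genes. Peaks were more frequent at promoters rich in CpG dinucleotides. In the members' own deciles of promoter CpG ratio, 64.4% (Tead2) and 84.3 to 93.4% (the others) of coding genes were bound. At 7 of 10 members the promoter peak scored at least the list median, beside 47.3% of coding genes, or 10341 of the 12199 promoter-bound ones. In falling order, the highest promoter score was 1536 at Vgll4, 1033 at Yap1, 803 at Lats2, 739 at Wwtr1, 569 at Amotl2, 205 at Tead4, 117 at Tead2, 97.3 at Tead3, 95.2 at Lats1 and 82.4 at Tead1. The first 5 lay in the top 10% of scores, as did a promoter peak of 22.8% of coding genes. Among promoter-bound genes this was 4984 of 12199. The other 5 lay below the median of 315 over all promoter-bound genes. All 4 TEAD genes were in the low set. The split depends on how starts are drawn: with promoters of 2.5 kb on each side Tead3 scored 335 and Tead1 263, and with basic transcripts alone Vgll4 scored 299, outside the top 10%. Both coactivators were in the high set, while the kinase pair was split. The median over the 10 genes was 387.

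**Figure D1:**
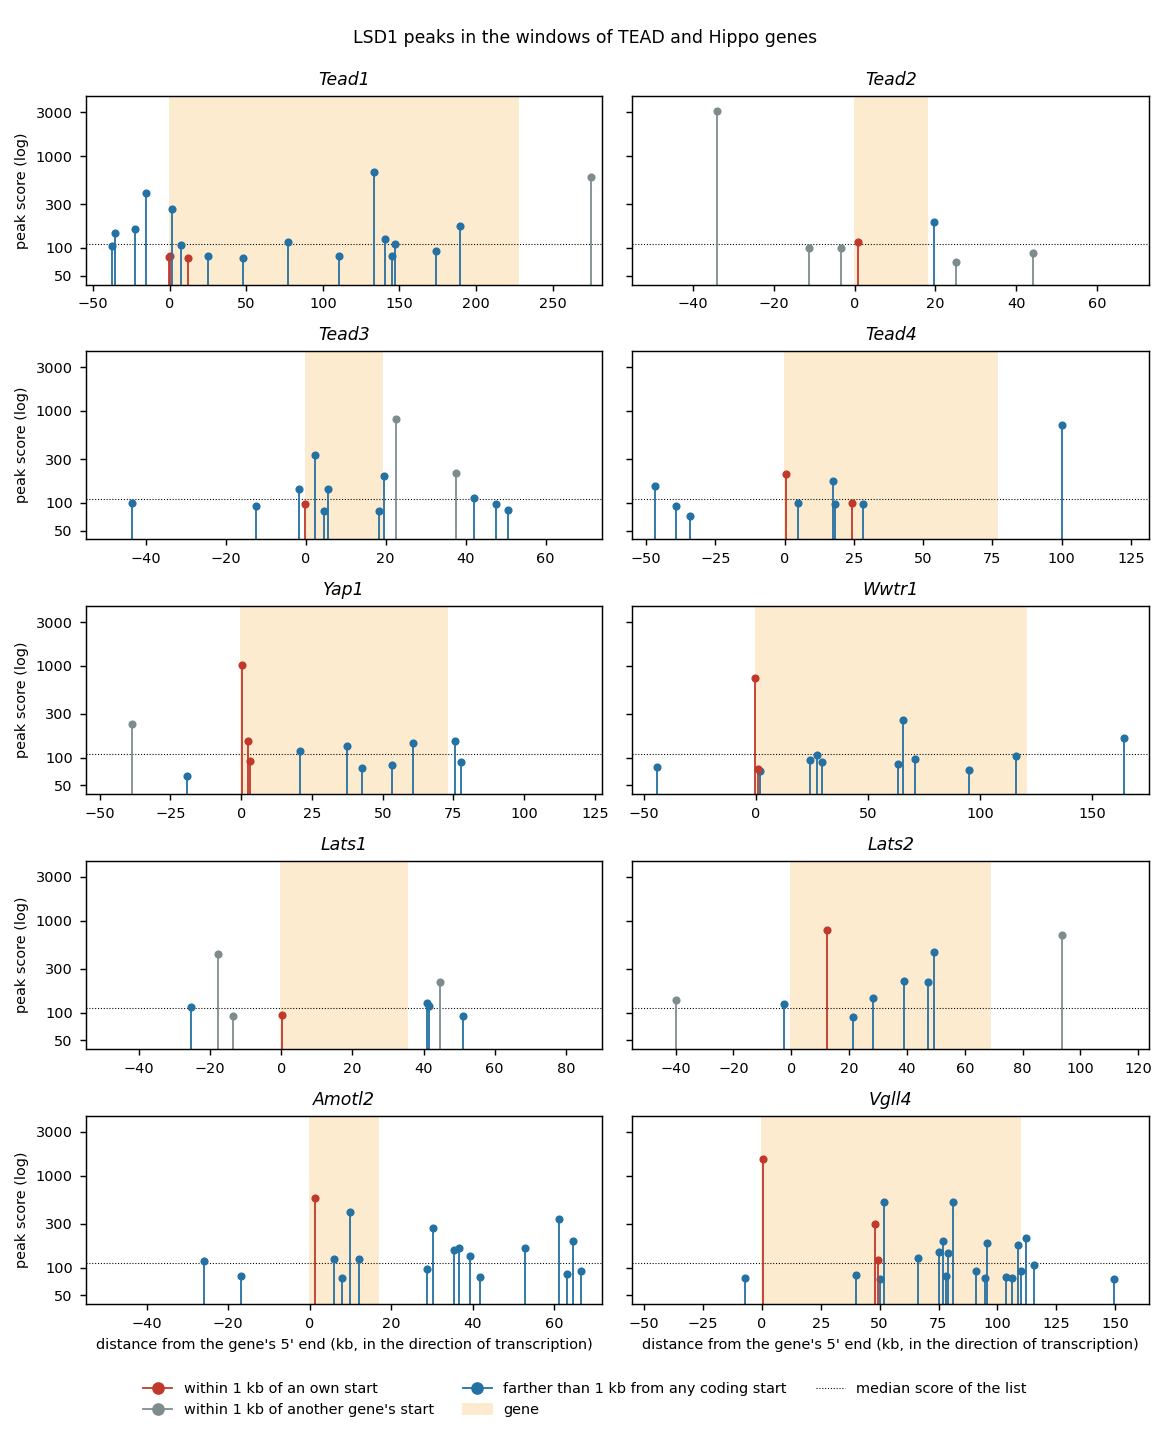
Each panel plots the score of every LSD1 peak of 1 gene (vertical axis, log scale) against the distance of its midpoint from the gene's 5' end in kb, read in the direction of transcription. Red points lie within 1 kb of an own coding start, grey points within 1 kb of another gene's start, blue points elsewhere; the shaded block is the gene and the dotted line the list median of 111. Tall red points stand at Yap1, Wwtr1, Lats2, Amotl2 and Vgll4, and the tallest points of the TEAD panels are blue or grey.

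The TEAD genes encode the DNA-binding partners of YAP and TAZ. Tead1 (chr7:112679318-112906807, plus strand) had 2 low-scoring peaks, one over its main starts and one just past them. The peak at chr7:112678771-112679353 scored 79.7 and the peak at chr7:112679500-112680072, in intron 1, scored 82.4. The start of the noncoding gene 2310014F06Rik lay within 1 kb of both. A further promoter peak at chr7:112691132-112691722 (score 77.6) belonged to a start inside intron 1. All these scores were below the list median. The main start lies in a CpG-rich promoter, with an observed over expected CpG ratio of 1.01 in the 1 kb around it. Of the coding genes in the top CpG decile 93.4% were bound, with a median score of 438, and 2.74% of the bound ones scored no higher than Tead1.

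The higher-scoring peaks at Tead1 lay away from its starts. The highest peak of the gene, at chr7:112811831-112813441 in intron 2, scored 675 and was 53100 bp downstream of the nearest Tead1 start. A peak upstream at chr7:112662887-112664397 scored 397, and one in intron 1 at chr7:112680568-112681622 scored 263, with its edge 1211 bp from a Tead1 start. The start of 2310014F06Rik lay within 1 kb of this intron 1 peak too. The distal peaks within the gene (more than 1 kb from any coding start) numbered 12, with scores from 76.8 to 675 and a median of 109. The remaining high peak of the window, chr7:112953647-112955674 with a score of 586, lay at the start of the neighbour Rassf10. The centre of the intron 2 peak is shown since it is the highest-scoring peak inside a TEAD gene. It is AT-rich (40.3% G+C) and holds no TEAD letters, and the capitals mark its 2 matches to the AP-1 letters TGANTCA.
Tead1 intron 2, chr7:112812486-112812785, plus strand: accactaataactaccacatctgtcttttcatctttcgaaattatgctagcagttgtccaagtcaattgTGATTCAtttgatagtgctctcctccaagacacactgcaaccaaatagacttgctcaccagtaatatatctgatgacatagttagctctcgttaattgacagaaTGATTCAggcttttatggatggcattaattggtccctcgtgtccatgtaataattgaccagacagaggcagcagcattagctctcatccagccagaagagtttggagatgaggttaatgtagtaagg

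Tead2 (chr7:45215753-45233644, plus strand) had 1 peak over its starts, chr7:45216351-45216975, with a score of 117 and no further peak in the gene. Its starts lie in the least CpG-rich promoter of the 10, with a ratio of 0.587. Of the 6 other peaks in its window, 5 lay at starts of neighbours. The highest peak in any of the windows was among them, at chr7:45180422-45183078 with a score of 3100, over the starts of Gfy and Pth2. A peak at chr7:45204257-45204809 (score 99.8) lay at Ccdc155, and the only distal peak, chr7:45234902-45235736 (score 191), was nearest to Cd37.

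Tead3 (chr17:28331671-28350817, minus strand) had a peak over its starts at chr17:28350548-28351237 with a score of 97.3. A higher peak lay just inside the gene at chr17:28347905-28348892 (score 335), in an exon of a further Tead3 transcript, with its midpoint 1948 bp from a start. Bound genes of the same CpG decile had a median of 338, and 8.52% of them scored no higher than the Tead3 start. The highest-scoring peak of the window, at chr17:28327174-28329392 (score 819), covered the start of Rpl10a, a ribosomal protein gene past its 3' end, and the peak at chr17:28312851-28313769 (score 213) lay at Fance.

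Tead4 (chr6:128224288-128300823, minus strand) had the highest-scoring start peak of the family, chr6:128299812-128301034 with a score of 205. A second promoter peak at chr6:128276058-128276700 scored 99.5 beside an internal start. Peaks in intron 1 at chr6:128283005-128283695 (score 175) and upstream at chr6:128347277-128348064 (score 152) followed. The highest peak of the window, chr6:128200130-128201339 with a score of 698, lay past the 3' end of Tead4 and nearest to the coding start of Tspan9, far outside its promoter. It was at the start of the long intergenic noncoding gene Gm10010. Its centre is printed as the highest-scoring distal peak of all 10 windows. It is CpG-rich for a distal site, with 22 CpG dinucleotides and 65.3% G+C, and the capitals mark 4 matches to the SP/KLF letters GGGCGG.
Tead4 window, chr6:128200584-128200883, plus strand: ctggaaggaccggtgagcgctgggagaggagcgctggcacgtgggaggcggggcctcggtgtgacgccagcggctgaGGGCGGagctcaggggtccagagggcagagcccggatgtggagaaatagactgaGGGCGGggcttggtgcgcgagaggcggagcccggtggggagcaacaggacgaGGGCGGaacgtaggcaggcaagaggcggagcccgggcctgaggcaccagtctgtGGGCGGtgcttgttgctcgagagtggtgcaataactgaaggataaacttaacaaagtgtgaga

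The coactivator genes both had wide, high-scoring peaks at their main starts and peaks of at most 259 elsewhere in their windows. Yap1 (chr9:7931999-8004596, minus strand) carried a peak of 2367 bp at chr9:8003016-8005382 with a score of 1033, in percentile 98.6 of the list. The start of the noncoding gene Gm45494 lay within 1 kb of it. Peaks at chr9:8001880-8002635 (score 151) and chr9:8001164-8001869 (score 92.9) lay at an internal start. Within the gene 5 distal peaks scored from 77.1 to 145, the highest at chr9:7943666-7944247 in intron 5, and a peak past the 3' end at chr9:7928706-7929424 scored 151. The upstream peak at chr9:8042588-8043493 (score 236) lay at the start of Cfap300. The printed run from the centre of the start peak covers 184 bases of coding sequence and the adjoining intron, with CpG dinucleotides in capitals, 21 in all.
Yap1, chr9:8004099-8004298, minus strand: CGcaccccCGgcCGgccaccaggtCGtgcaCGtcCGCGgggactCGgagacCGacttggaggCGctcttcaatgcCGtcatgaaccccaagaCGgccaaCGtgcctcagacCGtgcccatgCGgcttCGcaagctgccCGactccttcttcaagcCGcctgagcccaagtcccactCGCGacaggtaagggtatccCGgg

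Wwtr1 (chr3:57455649-57575910, minus strand), the TAZ gene, had a peak of 1715 bp at chr3:57575353-57577067 with a score of 739, mostly upstream of its starts. An adjoining peak at chr3:57574751-57575349 over coding exon 2, scored 75.5. The gene body held 9 distal peaks with scores from 72.3 to 259 and a median of 94.1, below the list median. The highest was at chr3:57509886-57510904 in intron 2. The next in the gene, chr3:57548193-57548889, scored 106, and a peak past the 3' end at chr3:57411401-57412410 scored 166. Wwtr1 had the lower CpG ratio of the pair, 0.745 against 1.04 for Yap1, and stood at percentile 84.4 of the bound genes in its own CpG decile, beside 88.2 for Yap1 in its decile.

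The LATS kinases restrain YAP and TAZ, and the promoters of their genes differed widely in score. Lats1 (chr10:7681214-7716460, plus strand) had a single peak, chr10:7681015-7681620, with a score of 95.2 and a width of 606 bp. It covered the upstream start, and a start of the divergent gene Pcmt1 lay within 1 kb of it. The downstream Lats1 start, in a CpG-poor stretch with a ratio of 0.228, had no peak. No other peak fell in the gene. Higher peaks of the window lay at another start of Pcmt1 (chr10:7663087-7663946, score 437) and at Katna1 (chr10:7725461-7726424, score 213), and a peak past the 3' end at chr10:7721829-7722339 scored 127. Lats2 (chr14:57689662-57758388, minus strand) had a start peak of 1546 bp at chr14:57745309-57746854 with a score of 803. The 5'-most annotated start of Lats2 had no peak and a CpG ratio of 0.148. Both bound promoters are in the top CpG decile, with ratios of 0.998 for Lats2 and 0.913 for Lats1. Among bound genes of that decile Lats2 stood at percentile 79.4 and Lats1 at 5.83. Lats2 also carried 5 distal intronic peaks with scores from 89.3 to 460, 3 of them above 200, including chr14:57708345-57709754 (score 460) and chr14:57719158-57720003 (score 223). The peak at chr14:57663991-57665797 (score 706) was at the start of Xpo4. The run just upstream of the bound Lats2 start holds 29 CpG dinucleotides, in capitals, and 78.0% G+C.
Lats2, chr14:57746124-57746323, minus strand: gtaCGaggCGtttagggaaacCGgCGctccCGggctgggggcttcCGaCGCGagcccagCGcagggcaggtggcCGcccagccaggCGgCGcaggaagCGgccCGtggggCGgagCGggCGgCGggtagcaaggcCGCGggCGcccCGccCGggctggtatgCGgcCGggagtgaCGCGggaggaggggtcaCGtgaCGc

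Amotl2 and Vgll4, whose products bind YAP or TEAD and restrain them, combined a high promoter peak with many distal ones. Amotl2 (chr9:102716672-102733418, plus strand) is a compact gene of 16747 bp with a start peak of 1961 bp at chr9:102716909-102718869 (score 569). A peak in intron 5 at chr9:102725909-102727000 scored 398. Past its 3' end, 11 further peaks followed between 11.8 and 49.6 kb from the gene, with scores from 80.0 to 336 and a median of 156. The highest of these were chr9:102777047-102778355 (score 336) and chr9:102746423-102747271 (score 268). No coding start other than those of Amotl2 lies within 1 kb of any peak in the window. For 4 of the downstream peaks the nearest coding start was nevertheless that of Ryk.

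Vgll4 (chr6:114860628-114969994, minus strand) had the highest promoter score and the most peaks of the set. The peak at chr6:114968165-114970894, 2730 bp wide with a score of 1536, lay over the upstream pair of starts and stood in percentile 99.5 of the list. The downstream start had a peak at chr6:114921533-114922457 with a score of 299 and a second one at chr6:114920490-114921020 with a score of 120. The upstream transcripts are not tagged basic in the annotation: with basic transcripts alone the highest promoter score of Vgll4 is 299 and the median over the 10 genes is 252. With basic transcripts 10 of 10 members were bound, beside 55.1% of coding genes. RefSeq's curated starts gave 10 of 10, beside 56.1% of RefSeq coding genes, with 1536 for Vgll4 and the same scores as above for the other members. With promoters of 2.5 kb on each side 10 of 10 were bound, beside 59.1%. The gene body held 15 distal peaks spread over 69.2 kb, with scores from 75.8 to 522 and a median of 127. The highest were chr6:114917332-114919063 in intron 1 (score 522) and chr6:114888450-114889680 in intron 2 (score 513), and a peak past the 3' end at chr6:114857587-114858435 scored 213. The start run, from between the upstream starts, has its 19 CpG dinucleotides in capitals.
Vgll4 start, chr6:114969429-114969628, minus strand: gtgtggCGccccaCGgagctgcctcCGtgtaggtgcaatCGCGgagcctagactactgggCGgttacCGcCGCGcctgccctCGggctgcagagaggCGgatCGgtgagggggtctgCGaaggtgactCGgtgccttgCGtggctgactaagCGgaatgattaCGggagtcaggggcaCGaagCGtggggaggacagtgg
The intron 2 peak is the highest distal one with TEAD letters, and its run has them in capitals.
Vgll4 intron 2, chr6:114888915-114889214, plus strand: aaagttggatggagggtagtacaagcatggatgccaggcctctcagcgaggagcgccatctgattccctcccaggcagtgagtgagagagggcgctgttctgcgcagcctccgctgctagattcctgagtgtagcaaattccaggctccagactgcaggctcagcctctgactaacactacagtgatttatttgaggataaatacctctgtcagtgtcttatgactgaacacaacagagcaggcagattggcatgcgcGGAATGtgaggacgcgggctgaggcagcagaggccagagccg

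Promoter CpG content, which the choice of genes did not use, did not separate the high from the low set. The high set had ratios from 0.745 to 1.04 and the low set from 0.587 to 1.01. Tead1 and Lats1, in the top CpG decile with Yap1, Lats2 and Vgll4, had the 2 lowest scores of all. The members at or above the median of bound genes in their own CpG decile were 5 of 10, beside 50% of bound genes, a share that the use of a median sets. Among separate groups of starts (starts within 1 kb of each other joined), 15 of 23 had a peak and 8 had none. The Lats2 start peak was counted for more than 1 group. The share of such groups with a peak over all coding genes was not computed. The median CpG ratio was 0.749 for groups with a peak and 0.337 for those without. Internal starts of Tead1 and Tead4 were nevertheless bound at ratios of 0.159 and 0.177.

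**Figure D2:**
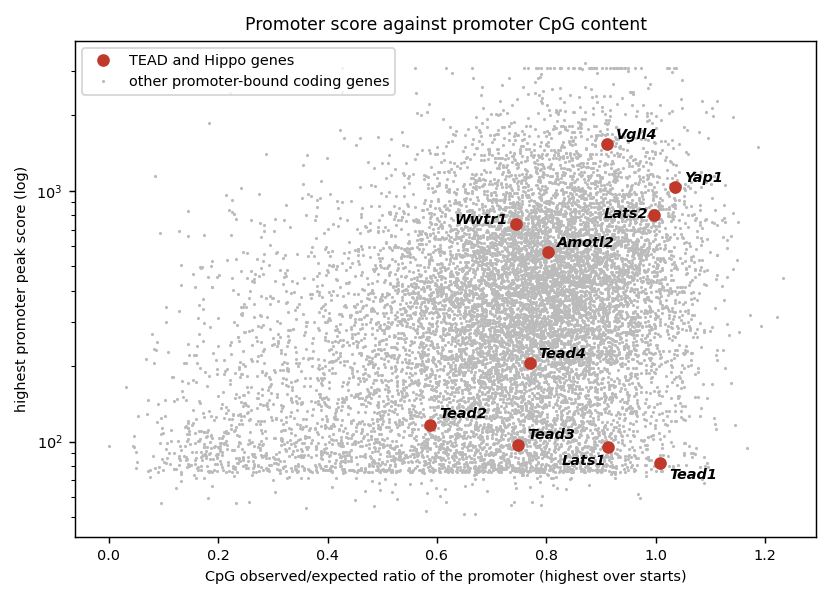
The highest promoter peak score of each gene (vertical axis, log scale) is plotted against the CpG observed over expected ratio of its promoter (horizontal axis), with the 10 genes in red and the other promoter-bound coding genes in grey. The members of the top CpG decile include both the lowest red point, Tead1 at 82.4, and the highest, Vgll4 at 1536.

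The windows held more peaks than those of most coding genes. The comparisons here are with all coding genes, with or without a promoter peak, while all 10 members have one. Window counts were not compared with promoter-bound genes alone. Every member had at least 1 window peak, as did 83.9% of coding genes, and 7 of 10 had at least 10, a number reached by 22.6% of coding genes. The counts were 23 at Vgll4, 20 at Tead1, 18 at Amotl2, 14 at Tead3, 13 at Wwtr1, 12 at Yap1, 10 at Tead4, 9 at Lats2, 8 at Lats1 and 7 at Tead2, with a median of 12.5 beside 5 over all coding genes. Longer genes have longer windows. Within deciles of gene length all 10 members exceeded the decile median, as did 46.6% of coding genes. Per 100 kb of window, Amotl2 had 15.4 peaks, Tead3 11.8 and Vgll4 10.99, and the other members 5.33 to 6.95, beside a median of 3.54 over coding genes. The median score of the 134 peaks was 117, close to the list's 111, and 12.7% of them were in the top 10% of scores.

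**Figure D3:**
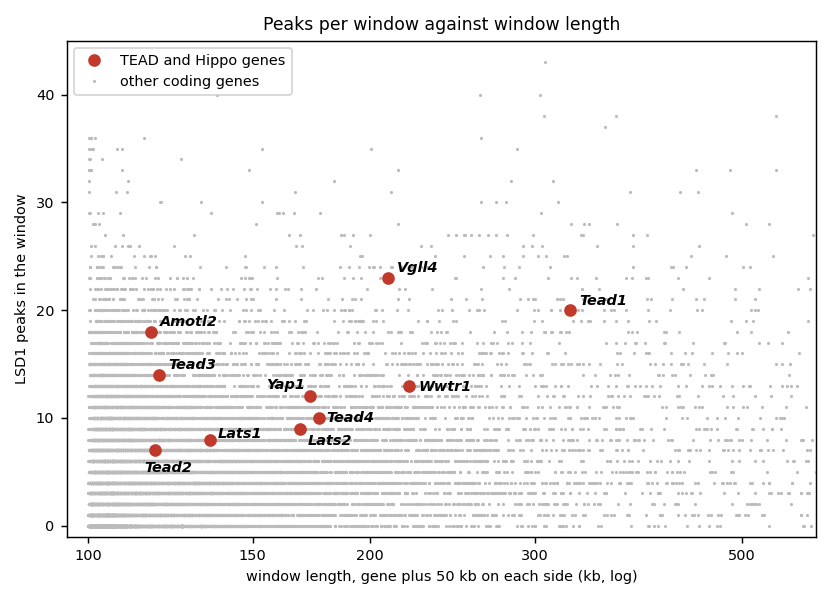
The number of LSD1 peaks in the window of each gene (vertical axis) is plotted against the window length in kb (horizontal axis, log scale), with the 10 genes in red and the other coding genes in grey; 232 genes with windows over 600 kb or more than 45 peaks lie outside the frame. Vgll4 with 23 and Amotl2 with 18 peaks stand high for their window lengths.

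Not every peak in a window belongs to the gene that names it. For 92 of the 134 peaks, 68.7%, the nearest coding start was that of the member, and 14 lay at the start of another gene but not of the member. All 23 peaks at Vgll4, 18 of 20 at Tead1 and 14 of 18 at Amotl2 were nearest to a start of the member, against 1 of 7 at Tead2, 1 of 8 at Lats1 and 5 of 14 at Tead3. The tenth of highest scores held 17 of the window peaks, of which 5 were at own starts, 5 at other genes' starts and 7 distal. The highest peak of the window was at an own start for 5 of 10 members (Yap1, Wwtr1, Lats2, Amotl2 and Vgll4), beside 25.1% of coding genes. Only promoter-bound genes can meet this, and 5490 of the 12199 bound coding genes did. Of the 102 distal peaks, 58 lay in the body of a member, 54 of them in introns. Dense groups were mostly those of Amotl2 and Vgll4, which held 17 and 20 of the 102 distal peaks. Of all distal member peaks, 28 (27.5%) had at least 4 other peaks within 10 kb, beside 9.10% of distal peaks of the list. Of these 28, 22 were at Amotl2 and Vgll4, so the pooled share mainly describes those genes.

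The letters GGAATG, the core that TEAD proteins bind, were looked for on both strands in the 300 bp around each peak midpoint. Away from promoters they were found in 14 of 102 member peaks, 13.7% (Wilson 95% interval 8.36 to 21.7%), beside 19.0% of distal peaks in the list. At the members' own starts they were found in 7 of 18 peaks, 38.9% (20.3 to 61.4%), beside 11.7% of promoter peaks in the list. By gene this was 7 of 10 members, beside 14.5% of promoter-bound coding genes. The intervals cover counting error only, and peaks of the same gene are not independent. The difference depended on the window: over whole peaks the letters were in 8 of 18, 44.4%, beside 36.03% of promoter peaks in the list. The longer GGAATGT was in 1 of 18 central windows, 5.56%, beside 2.77% of promoter peaks in the list. That one is at Wwtr1; the Amotl2 match also reads GGAATGT, but its last base falls just outside the 300 bp. A match is a description of the sequence and does not show that TEAD binds there.

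One match per gene is printed with the letters in capitals and 7 bases on each side, read on the strand that carries them, to show the flanking letters. Tead4 has 3 matches close together in its first exon, of which the first is printed. The matches of Tead1, Tead3, Wwtr1 and Vgll4 lie upstream of the nearest own start by 194, 167, 321 and 292 bp in that order. Those of Lats2 and Amotl2 lie 7 and 73 bp downstream. These sequences were chosen after their values were seen.
Tead1, chr7:112679115-112679134, minus strand: gatactaGGAATGccgggtg
Tead3, chr17:28350975-28350994, minus strand: cgagcgaGGAATGgggtgcg
Tead4, chr6:128300450-128300469, plus strand: cccggcaGGAATGcacggaa
Wwtr1, chr3:57576222-57576241, plus strand: agcacccGGAATGtggcacg
Lats2, chr14:57746107-57746126, minus strand: cgcccgtGGAATGccaacaa
Amotl2, chr9:102717732-102717751, minus strand: tatgccaGGAATGtgagagt
Vgll4, chr6:114969463-114969482, minus strand: actaagcGGAATGattacgg

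For the other motifs the members' intervals included the share of the list. AP-1 letters (TGANTCA) were in 21 of 102 distal member peaks, 20.6% (13.9 to 29.4%), beside 15.4% of distal peaks in the list. SP/KLF letters (GGGCGG) were in 10 of 18 promoter peaks, 55.6%, beside 49.4%. The letters of the C/EBP motif were in 12 of 102 distal peaks, 11.8%, beside 13.9%, and the NFY letters CCAAT in 25 of 102, 24.5% (17.2 to 33.7%), beside 33.1%. No member peak held the letters of the NRF1 or the PPAR-RXR motif, which 0.326% and 0.0862% of list peaks held. Those of the ETS motif were in 1 of 134 member peaks, 0.746%, beside 1.26% of list peaks.

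**Figure D4:**
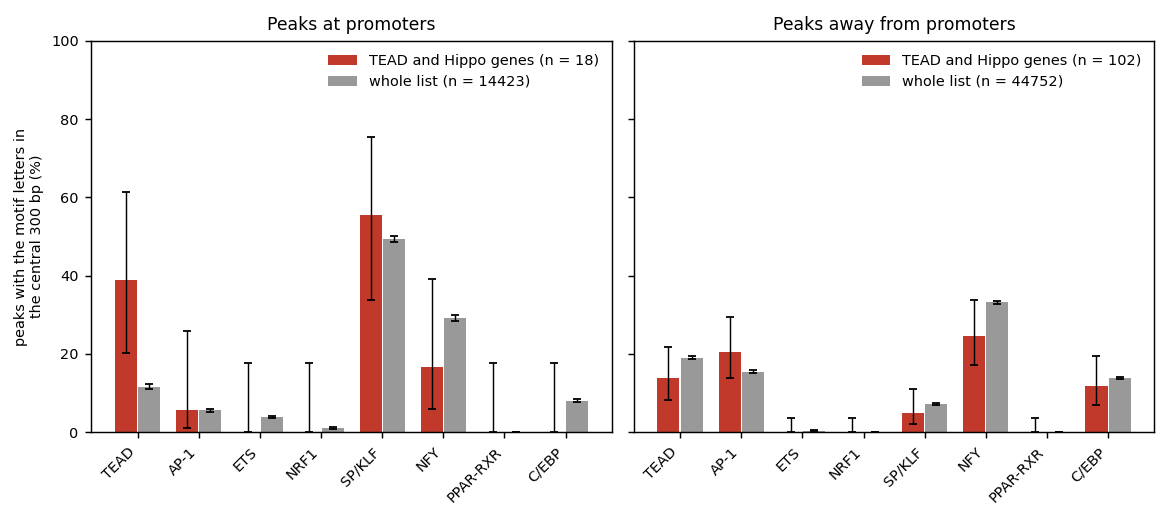
Bars give the percentage of peaks with each motif's letters in the central 300 bp, for the 10 genes (red) and the whole list (grey), at promoters on the left and away from them on the right; error bars are Wilson 95% intervals. At promoters the TEAD bar of the members, 38.9%, stands above the 11.7% of the list, and the other pairs of intervals overlap.

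The rest of the pathway was described from a list of 33 genes chosen by role. A promoter peak was present at 28 of them, 84.8%, beside 55.8% of coding genes. Most of the 33 genes lay in CpG deciles 6 to 10, where 77.2 to 93.4% of coding genes were bound. The score was in the top 10% at 15 of them. That held for a promoter peak of 22.8% of coding genes, or 4984 of the 12199 promoter-bound ones. The upstream kinase module was bound throughout, at 11 of 11 genes with a median score of 321. Stk38 (939), which encodes a kinase related to LATS, Taok2 (720) and Taok3 (575), kinases that act above MST, were highest. The MST kinase genes Stk4 (314) and Stk3 (150) were lower. Stk38l, the paralogue of Stk38, had the lowest score of the module, 102, at a CpG ratio of 1.01. Of the scaffolds and membrane inputs 10 of 13 were bound, led by the giant cadherin Fat4 (1089), the LIM protein Ajuba (896) and the phosphatase Ptpn14 (814). Nf2, which encodes the tumour suppressor merlin, and Dchs1, the cadherin partner of Fat4, had no promoter peak despite CpG ratios of 0.866 and 0.990. Amot, the angiomotin gene itself, had none either, and Amotl1 had a peak with a score of 68.2, so among the angiomotins the high promoter score was at Amotl2. Of the other Vestigial-like cofactors, Vgll3 had a peak with a score of 696, and Vgll1 and Vgll2 had none and no peak in their windows.

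Genes known from other cells as targets of YAP and TEAD were all bound, 6 of 6, beside 55.8% of coding genes. Their median score was 354, beside 315 over all promoter-bound genes. The score was in the top 10% at 3 of them, as it was at 4984 of the 12199 promoter-bound genes. Axl, a receptor kinase, had the highest (457), followed by Tgfb2 (428), a growth factor gene, and Crim1 (418), which encodes a membrane protein with cysteine-rich repeats. The matricellular genes Ccn2, known as Ctgf, and Ccn1, known as Cyr61, scored 290 and 173, and Ankrd1 scored 223. Axl and Ankrd1 were bound at CpG-poor promoters, with ratios of 0.324 and 0.323. Amotl2 and Lats2 are themselves known as YAP targets and scored higher than any of the 6.

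**Figure D5:**
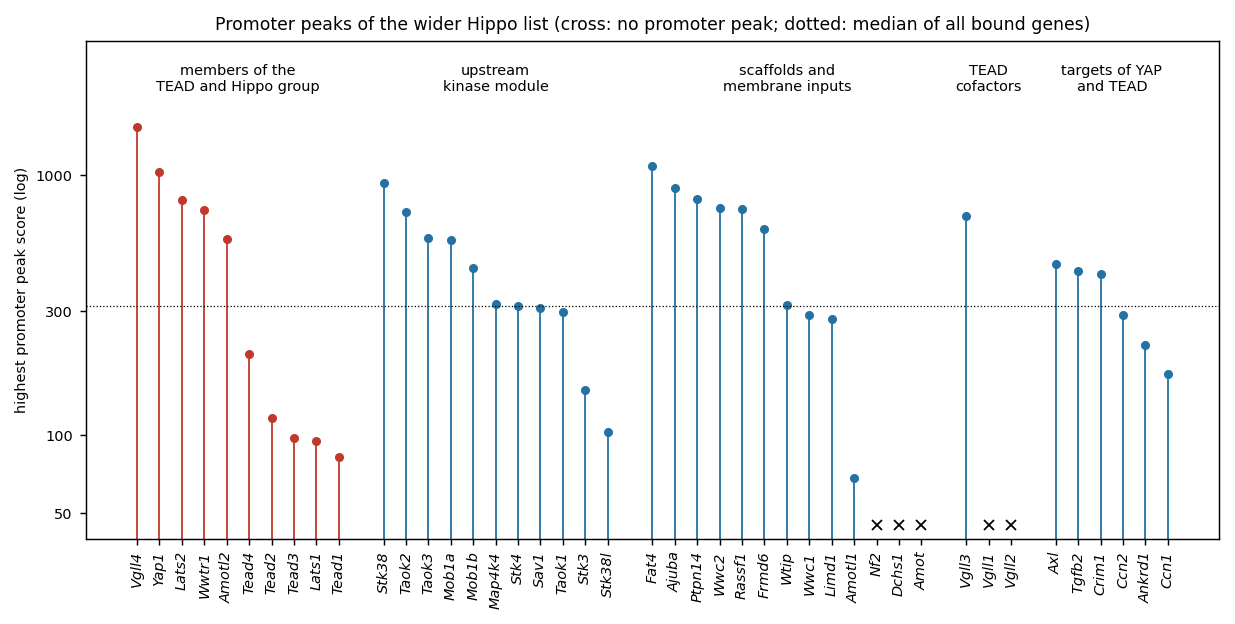
The highest promoter peak score of each gene (vertical axis, log scale) is drawn for the 10 members in red and for the 33 further pathway genes in blue, grouped by role and sorted within each group; crosses mark the 5 genes without a promoter peak and the dotted line the median of 315 over all promoter-bound genes. The red points fall into 5 above the line and 5 below it.

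At the limits of the choice, the promoter peak farthest from its start, at Vgll4 with a score of 120, had its edge 801 bp away, and the nearest peak left out, at Tead1 with a score of 263, was 1211 bp away. At the outer edge of the windows, the last peak kept past Amotl2 scored 91.0 at 49559 bp and the next one, at 50839 bp, scored 97.9.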

How the data were processed

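LSD1 chromatin immunoprecipitation and input libraries of brown adipocytes were sequenced. Per the submitters' processing notes, Bowtie2, MACS 1.41 and the build mm10 were used. How peaks were filtered and how the input entered is not stated there. The deposited score, the authors' value for each peak, served only for description and ranking. Depth is unknown.

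Starts were counted from 1 in all coordinates. Peaks were assigned to 54327 protein-coding start positions of GENCODE M21 by overlap of at least 1 bp, with sequence from GRCm38.p6 (RefSeq), with python 3.11.15, pandas 2.3.3 and scipy 1.17.1. Assignment and motif matching were tested on simulated data. A gene's CpG ratio is that of its most CpG-rich start (1 kb window). Introns and exons are numbered in 1 transcript per gene, chosen as basic, then principal, then of longest coding sequence.

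Members and lists were chosen with earlier results of these data known. Named were all members with every promoter peak and the 3 highest other peaks, and from each role of the wider list the 3 highest and the first 2 without a promoter peak. Further peaks and genes were named after their values were seen. Alternatives were other promoter widths, windows, start sets, score limits and motif windows.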

Additional observations from a re-analysis of the deposited data

How the results depend on the processing

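All 10 members kept a promoter peak with half-widths of 500 bp and 2500 bp, with midpoints required inside the promoter, with basic transcripts and with RefSeq curated starts, and the 33-gene list kept 28 under each of these. With peaks at or above the list median, 7 members and 26 list genes remained bound, and with the top 10% of scores 5 and 15. The median promoter score of 387 was 452 at 2500 bp, where Tead1 (263) and Tead3 (335) gained from peaks just inside the gene, and 252 with basic transcripts, where Vgll4 lost its upstream starts. The 134 window peaks became 92 within 10 kb, 193 within 100 kb, 119 without peaks at other genes' starts and 70 at or above the list median. The median per gene of 12.5 became 7.5, 18 and, with the score limit, 7. The share nearest to the member was 84.8% within 10 kb and 50.8% within 100 kb, since wider windows reach more neighbours. TEAD letters were in 16.4% of all window peaks, 35.1% over whole peaks and 3.73% for GGAATGT (list: 17.2, 36.4 and 5.00%), and at own starts in 33.3% of 200 bp windows, 44.4% of whole peaks and 5.56% for GGAATGT (list promoters: 7.69, 36.03 and 2.77%). RefSeq starts, basic transcripts for the score median, and motif windows at own starts were chosen after seeing the data. No paired analysis was possible because there is 1 library per group. Unknown depth and the lack of replicates limit every value.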
